A study of Mus musculus with 12 samples.

Results

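The comparison described here is the difference between H6pd knockout (KO) and wild-type (WT) mouse muscle that remains when 2 muscles are averaged. It used 12 of the 12 arrays of the series: 6 arrays titled KO against 6 titled WT, with the muscle as covariate, so that each gene's value is the mean of its KO minus WT differences in soleus and in tibialis anterior (TA). Each array measured RNA from one muscle of mice aged 4 weeks, with 3 arrays for each genotype in each muscle (KO soleus, KO TA, WT soleus and WT TA). The mice were weaned and their muscle had no overt myopathy on histology, per the design text, and soleus and TA were taken for their unlike fibre types and metabolism. The arrays of a group are called biological replicates, but the labels do not say whether both muscles of a number came from one mouse, and they give neither the strain, the sex nor the deleted part of H6pd. P-values therefore measure the spread between these arrays.

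H6pd encodes hexose-6-phosphate dehydrogenase, which oxidises glucose-6-phosphate inside the lumen of the endoplasmic reticulum (ER) and makes NADPH there. In liver and fat this NADPH lets 11-beta-hydroxysteroid dehydrogenase type 1 regenerate active glucocorticoid. In muscle the ER is continuous with the sarcoplasmic reticulum, which stores calcium. When proteins misfold in the ER, the sensors PERK, IRE1 and ATF6 start the unfolded protein response, which raises ER chaperones, the degradation of misfolded proteins and, through ATF4 and CHOP, genes of amino acid supply.

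H6pd itself was read by a single probe set. Its log2 signal was 4.19, 4.41 and 6.10 on the KO soleus arrays, 5.57, 6.12 and 7.11 on WT soleus, 6.89, 6.49 and 7.49 on KO TA, and 6.37, 6.26 and 7.92 on WT TA. The genotypes overlapped in both muscles. The mean difference was -0.63 (exact permutation within muscles, two-sided p = 0.27, 400 regroupings, smallest possible p = 0.005). Since the deleted part is not stated, this probe set may lie outside it, and the genotype labels were used as given.

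Averaged over both muscles, KO muscle had more RNA of ER folding, translocation and secretory traffic genes, of the stress transcription factor gene Ddit3 and of the nicotinamide riboside kinase gene Nmrk2. It had less RNA of Ampd1, Mettl21e, linc-Myh, respiratory chain subunits and phosphorylase kinase subunits. The linc-Myh mean rested on TA, at -6.16 against -0.61 in soleus, where both group means were below log2 4. In all, 635 of 13009 genes, or 4.88%, differed (limma, Benjamini-Hochberg adjusted p under 0.05): 314 were higher in KO (2.41%) and 321 lower (2.47%), while 2337 had an unadjusted p under 0.05. Of these, 104 differed by more than 2-fold, 49 upward and 55 downward. The difference had the same sign in both muscles for 626 of the called genes and opposite signs for 9, and 430 had no overlap between KO and WT arrays in either muscle. Calling on the mean of both muscles itself selects for equal signs, which held for 60.5% of all genes. Over all genes, 2.42% lay above WT without overlap in both muscles and 2.60% lay below it.

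The average called genes that neither muscle called alone. Soleus alone gave 4 genes (0.0307% of those tested) and TA alone 368 (2.83%). All 4 soleus genes and 299 of the TA genes were also called on the mean, whereas 332 genes were called on the mean only, 248 of them without overlap in both muscles. Another 69 genes called in TA were not called on the mean. No gene was called in both muscles by limma, although 516 had an unadjusted p under 0.05 in both with the same sign. Among the called genes of equal sign, the TA difference was the larger in 488 and the soleus difference in 138. Over all genes called on the mean, the median size of the difference was 0.71 in TA and 0.47 in soleus (log2).

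The count depended on how the arrays were treated. If soleus and TA arrays of one genotype and number share a mouse, fewer genes passed: 193 with that pair as a random block (estimated correlation 0.33), all among the 635, and 1 with the means of such pairs, 3 against 3. Of the 95 called genes that the naming rule gives, 49 passed with that block and 46 did not, among them Mthfd2 (adjusted p = 0.0741), Cish (0.0654), Atf4 (0.0972), Myh3 (0.0533) and Rpl4 (0.0534). Leaving out 1 array at a time lowered it most for KO TA replicates 2 (263 genes) and 3 (309), WT soleus replicates 2 (277) and 3 (325), KO soleus replicates 3 (373) and 2 (390), and WT TA replicates 1 (385) and 2 (421). Nmrk2, Dnajb9, Pdia6, Manf, Ampd1, Mettl21e, Casp12, Etfbkmt and Gadd45g were called in all 12 of these fits, whereas 2410006H16Rik, Plcd4 and Mthfd2 were called in 5, Cish in 4, Osbpl3 and Psat1 in 3, and Arfgap3 and Atf4 in 2. Without the 4 arrays numbered 3, which stood apart in every group, the count was 72. Of the genes just given as called in all 12 fits, Nmrk2, Mettl21e and Gadd45g still passed then. Dnajb9 (limma, adjusted p = 0.106), Manf (0.106), Pdia6 (0.0839), Casp12 (0.0759), Etfbkmt (0.0696) and Ampd1 (0.0582) did not. The balance of directions moved with the scaling: median centring gave 368 higher and 206 lower, and the table as deposited 348 and 250.

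**Figure D1:**
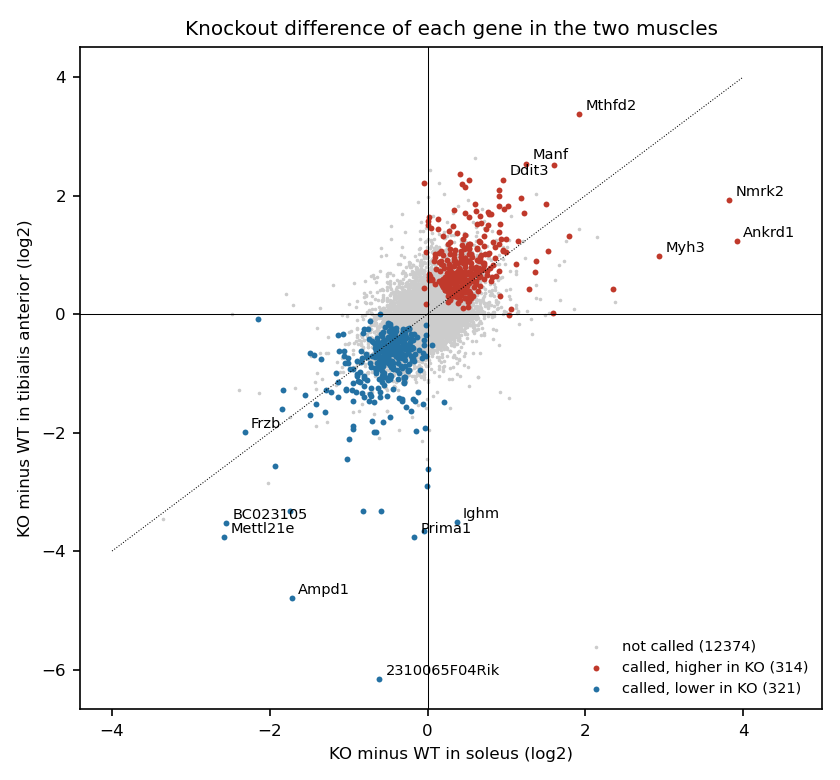
Each point is a gene, with its KO minus WT difference in soleus on the x axis and in TA on the y axis (both log2), in red or blue where the mean of both was called. Most called genes lie at the lower left or the upper right, with Nmrk2, Ankrd1 and Myh3 further out in soleus and 2310065F04Rik, Prima1 and Ighm displaced almost only in TA.

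Principal components showed where genotype stood among the other differences. The first component held 46.6% of the variance and separated the muscles. On the second, with 18.6%, scores ran from -33.9 to -23.8 for the 4 arrays numbered 3, 1 in each group, and from 5.8 to 21.9 for the other 8. The clock output gene Dbp moved with this split, at 10.76, 10.21, 10.68 and 10.25 (log2) on the arrays numbered 3 and from 7.61 to 9.20 on the others. Its part in the results was not tested. On the third component, with 12.7%, KO arrays lay between 4.3 and 29.7 and WT arrays between -25.0 and -7.3.

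**Figure D2:**
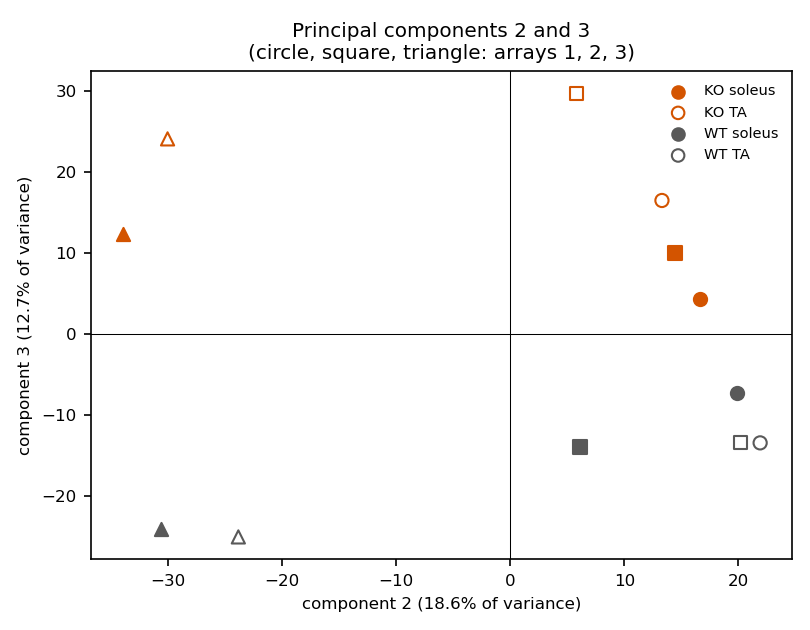
Array scores on principal component 2 (x, 18.6% of the variance) and component 3 (y, 12.7%), with KO arrays in orange, WT arrays in grey, soleus filled and TA open. Triangles, the arrays numbered 3, sit apart on the left in all 4 groups, and all KO arrays lie above all WT arrays on component 3.

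The ER folding machinery was higher in KO muscle as a broad group. Of 38 ER chaperones and folding enzymes, 12 rose, none fell and 36 had a higher mean, with a median difference of 0.49 (log2; 0.33 in soleus and 0.67 in TA) against 0.00 over all genes. Of the 38, 31.6% were called higher, against the 2.41% of all genes. The mean log2 signal of the list lay between 8.37 and 8.83 on KO soleus arrays and 8.10 and 8.32 on WT soleus arrays. In TA it lay between 8.75 and 9.02 for KO and 7.99 and 8.12 for WT, so the genotypes did not overlap in either muscle. Only 4 of the 12 passed with soleus and TA arrays as animal pairs, between 5 and 14 passed when single arrays were left out, and 2 passed without the arrays numbered 3.

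Dnajb9, which encodes a co-chaperone of the ER chaperone BiP, read 10.64, 11.79 and 12.46 on KO soleus, 10.60, 10.19 and 10.56 on WT soleus, 12.14, 12.94 and 12.28 on KO TA, and 10.72, 10.20 and 10.57 on WT TA. All KO arrays were above all WT arrays of their muscle, although KO soleus replicate 1 barely so. Its mean difference was 1.57 (SE 0.28, adjusted p = 0.0167), a 2.97-fold rise.

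Pdia6, a protein disulfide isomerase, read 9.01, 9.55 and 9.83 on KO soleus, 8.76, 8.27 and 8.47 on WT soleus, 9.87, 10.64 and 10.06 on KO TA, and 8.69, 8.51 and 8.04 on WT TA. The genotypes were apart in both muscles, and the mean difference was 1.37 (SE 0.19, adjusted p = 0.0064).

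Manf, a secreted protein of the ER lumen, had the list's highest difference, 1.89 (SE 0.29, adjusted p = 0.0102). Its KO soleus arrays read 10.93, 11.83 and 12.11 against 11.06, 10.10 and 9.94 in WT, so that 1 KO and 1 WT array overlapped there, whereas KO TA at 11.66, 12.66 and 11.93 lay clear of WT TA at 9.98, 9.60 and 9.06. Sdf2l1, another BiP partner, rose by 1.32 (SE 0.26) and Cnpy3, which folds Toll-like receptors, by 1.31 (SE 0.21). Both are lower bounds, since their WT TA means were below log2 4, a level under which 60.7% of the table's values lie.

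The promoters of several of these genes carry the ER stress response element, the sequence bound by ATF6 together with NF-Y. It was searched as CCAAT, any 9 bases, then CCACG, on both strands, in the 250 bases before the RefSeq start site (mouse assembly GRCm38.p6). It was present in 0.113% of 32851 promoters and in 14 of the 10449 tested genes that had one. The stretches below run on the gene's own strand from 10 bases before the element toward the start site. They show the element in chaperone genes that rose and, last, in a gene that differed by 0.02, with both conserved ends of each element in capitals (on the opposite strand they read CGTGG and ATTGG).
Hspa5, chr2:34772015-34772089, plus strand: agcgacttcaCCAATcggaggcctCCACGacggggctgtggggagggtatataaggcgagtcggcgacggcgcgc
Pdia6, chr12:17266481-17266588, plus strand: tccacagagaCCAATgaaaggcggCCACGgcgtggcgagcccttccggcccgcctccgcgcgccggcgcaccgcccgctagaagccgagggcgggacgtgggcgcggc
Creld2, chr15:88819510-88819629, plus strand: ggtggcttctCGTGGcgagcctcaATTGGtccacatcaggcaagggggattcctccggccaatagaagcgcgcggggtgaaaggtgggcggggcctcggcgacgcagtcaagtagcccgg
Hsp90b1, chr10:86705523-86705666, minus strand: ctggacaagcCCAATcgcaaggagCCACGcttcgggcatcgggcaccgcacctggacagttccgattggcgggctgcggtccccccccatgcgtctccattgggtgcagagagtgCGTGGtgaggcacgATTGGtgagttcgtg
Calr, chr8:84846984-84847103, minus strand: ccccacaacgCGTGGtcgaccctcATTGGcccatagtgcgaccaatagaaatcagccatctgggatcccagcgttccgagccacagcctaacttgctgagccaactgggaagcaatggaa
Adcy3, chr12:4133241-4133360, plus strand: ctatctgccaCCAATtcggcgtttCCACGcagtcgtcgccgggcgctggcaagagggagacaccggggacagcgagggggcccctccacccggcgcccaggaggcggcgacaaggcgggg

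Among the 14 genes that hold the element, all 14 had a higher mean in KO and 6 rose, with a median difference of 0.68. Hspa5, which encodes BiP, read 12.84, 13.36 and 14.14 on KO soleus, 13.00, 12.09 and 12.85 on WT soleus, 13.42, 14.03 and 13.65 on KO TA, and 12.10, 12.13 and 11.79 on WT TA. The genotypes were far apart in TA and overlapped at 1 KO array in soleus. Hspa5 rose by 1.25 (SE 0.23, adjusted p = 0.0188); another bright probe set gave 1.36, and a dimmer one -0.13 without passing.

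Creld2, an ER disulfide isomerase, rose by 1.24 (SE 0.25). Hsp90b1, the ER's Hsp90, rose by 0.94 (SE 0.18), and Calr, the lectin chaperone calreticulin, by 0.91 (SE 0.17). Alg12, a mannosyltransferase that shares its element with Creld2 on the opposite strand, was called at 0.20 with all its group means below log2 4, so its size cannot be read. Canx, the membrane-bound lectin chaperone calnexin, differed by 0.68 without overlap in both muscles but did not pass (adjusted p = 0.0553). Pan2, Adcy3 and Acacb, which are not ER folding genes, differed by 0.19, 0.02 and 0.01.

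By comparison, 6 of the 250 called-higher genes that had a promoter held the element (2.4%) and 0 of the 275 called-lower genes, against 0.134% of all tested genes. The related core TGACGTGG of ATF6 and XBP1, whose other strand starts with CCACG and can overlap the element, was in 0.871% of tested genes, 0.563% of all promoters, 5 of the called-higher and 5 of the called-lower genes. The C/EBP-ATF core TGATGNAA, read by CHOP and ATF4, was in 2.54% of tested genes, 3.45% of all promoters, 2 of the called-higher and 7 of the called-lower genes. These matches describe letters in a window and show no binding.

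**Figure D3:**
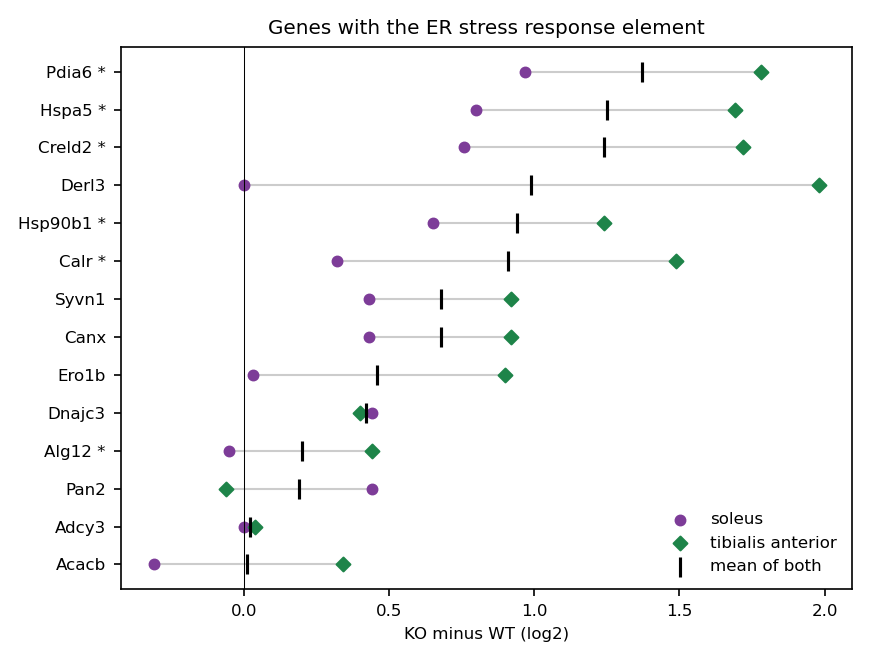
KO minus WT difference (log2, x axis) in soleus (circles), TA (diamonds) and their mean (bars) for the 14 genes with the ER stress response element. Asterisks mark the 6 genes called on the mean, and the difference in TA exceeds that in soleus for most genes, from Pdia6 at the top to Acacb at 0.01.

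The gate and the exit of the ER moved with the chaperones. Of 28 genes of the translocon, the oligosaccharyltransferase and the signal peptidase, 11 rose, none fell and 26 had a higher mean (median 0.47), and of 37 genes of ER to Golgi traffic 13 rose, 1 fell and 31 were higher (median 0.40). Those are 39.3% and 35.1% called higher, against 2.41% of all genes, and 7 and 6 rose when the animal pairs were a block. Without the arrays numbered 3 the counts were 0 and 1. Both medians were larger in TA: 0.63 against 0.19 in soleus for the first list, and 0.57 against 0.22 for the traffic genes.

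Sec11c, a catalytic subunit of the signal peptidase, read 8.75, 9.12 and 9.57 on KO soleus, 8.42, 8.05 and 8.24 on WT soleus, 9.61, 9.95 and 9.94 on KO TA, and 8.69, 8.76 and 8.50 on WT TA. Every KO array exceeded every WT array of its muscle, and the mean difference was 1.05 (SE 0.14, adjusted p = 0.00598). Its partners Spcs3 (0.86, SE 0.12) and Spcs2 (0.78, SE 0.12) and the translocon subunit Sec61b (0.77, SE 0.12) were also apart in both muscles, while Ddost of the oligosaccharyltransferase (0.69, SE 0.13) overlapped in soleus.

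Among the traffic genes Tmed3, a cargo receptor, rose most. It read 9.23, 8.93 and 9.74 on KO soleus, 8.77, 8.64 and 8.68 on WT soleus, 10.04, 10.48 and 10.87 on KO TA, and 8.53, 8.34 and 8.95 on WT TA. The groups did not overlap and the mean difference was 1.23 (SE 0.18, adjusted p = 0.00847). Sec22b, a SNARE, rose by 0.89, Lman1, a lectin receptor for cargo, by 0.78, and the coat subunit gene Copg1 by 0.75, while a second probe set of Copg1 gave 0.06 (adjusted p = 0.882). Sar1b, a GTPase that starts COPII coats, was the 1 that fell (-0.44). Arfgap3, which acts on COPI vesicles and was among the 12 highest genes, rose by 1.45 (SE 0.33).

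Genes of ER-associated degradation moved less. Of 21, 3 rose and 1 fell (median 0.26, with 0.06 in soleus and 0.50 in TA), or 14.3% called higher against 2.41% of all genes. With the animal pairs as a block 1 rose and none fell, and 1 to 4 rose when single arrays were left out. Derl1, a part of the retrotranslocation channel, rose by 0.67 (SE 0.11), with 3 other probe sets at 0.77 to 0.83. Ube2g2, the ubiquitin-conjugating enzyme of the pathway, rose by 0.56 and Derl2 by 0.52. Ube2j1, a conjugating enzyme anchored in the ER membrane, fell by 0.52 (SE 0.11), although another probe set of it gave 0.09.

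The sensors and effectors of the unfolded protein response mostly had a higher mean in KO, but few passed. Of 19 genes, 16 had a higher mean and 3 a lower one, with a median of 0.27. Limma called 2 higher, Ddit3 and Atf4, and 1 lower, Casp12. That is 10.5% called higher, against 2.41% of all genes. With the animal pairs as a block 1 rose, Ddit3, and 0 to 3 rose in the fits without single arrays, while Casp12 fell in each of them. Without the arrays numbered 3 no gene of the list passed. The sensor genes Ern1, Atf6 and Eif2ak3 were not called on the mean. Ddit3, which encodes CHOP, read 9.23, 9.65 and 10.75 on KO soleus, 8.94, 8.83 and 8.99 on WT soleus, 9.50, 10.73 and 11.05 on KO TA, and 8.32, 8.18 and 7.98 on WT TA. All KO arrays lay above WT in both muscles, with a wide spread among them. The mean difference was 1.61 (SE 0.30, adjusted p = 0.0184), while a dim second probe set gave 0.29 (adjusted p = 0.441).

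Atf4, which drives Ddit3, rose by 0.51 (SE 0.13, adjusted p = 0.0477), with another bright probe set at 0.39 that did not pass. Casp12, a caspase of the ER membrane, fell by 2.07 (SE 0.31), and its second probe set fell by 2.10. It read 7.99, 7.18 and 7.01 on KO soleus, 8.30, 8.40 and 7.94 on WT soleus, 4.92, 3.29 and 5.11 on KO TA, and 7.80, 7.71 and 7.78 on WT TA. The soleus arrays just overlapped and the TA arrays were far apart.

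Of 31 ATF4 and CHOP targets in amino acid supply, 3 rose and none fell, and the list's median was 0.07. That is 9.68% called higher, against 2.41% of all genes, and 1 rose with the animal pairs as a block and 1 to 4 without single arrays. Mthfd2, of mitochondrial folate metabolism, read 6.02, 7.40 and 9.44 on KO soleus, 5.95, 5.05 and 6.09 on WT soleus, 8.38, 10.06 and 10.25 on KO TA, and 5.42, 6.94 and 6.21 on WT TA. It varied widely among KO arrays and overlapped at 1 KO soleus array. Its mean difference was 2.65 (SE 0.58, adjusted p = 0.0311). Psat1, of serine synthesis, rose by 1.43 (SE 0.31). Aldh18a1, which starts proline synthesis, rose by 1.39 (SE 0.24), although its 4 other probe sets gave 0.06 to 0.68 and did not pass. Of 19 cytosolic aminoacyl-tRNA synthetases, 1 rose, the threonyl enzyme gene Tars (0.50, SE 0.08), or 5.26% called higher against 2.41% of all genes.

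**Figure D4:**
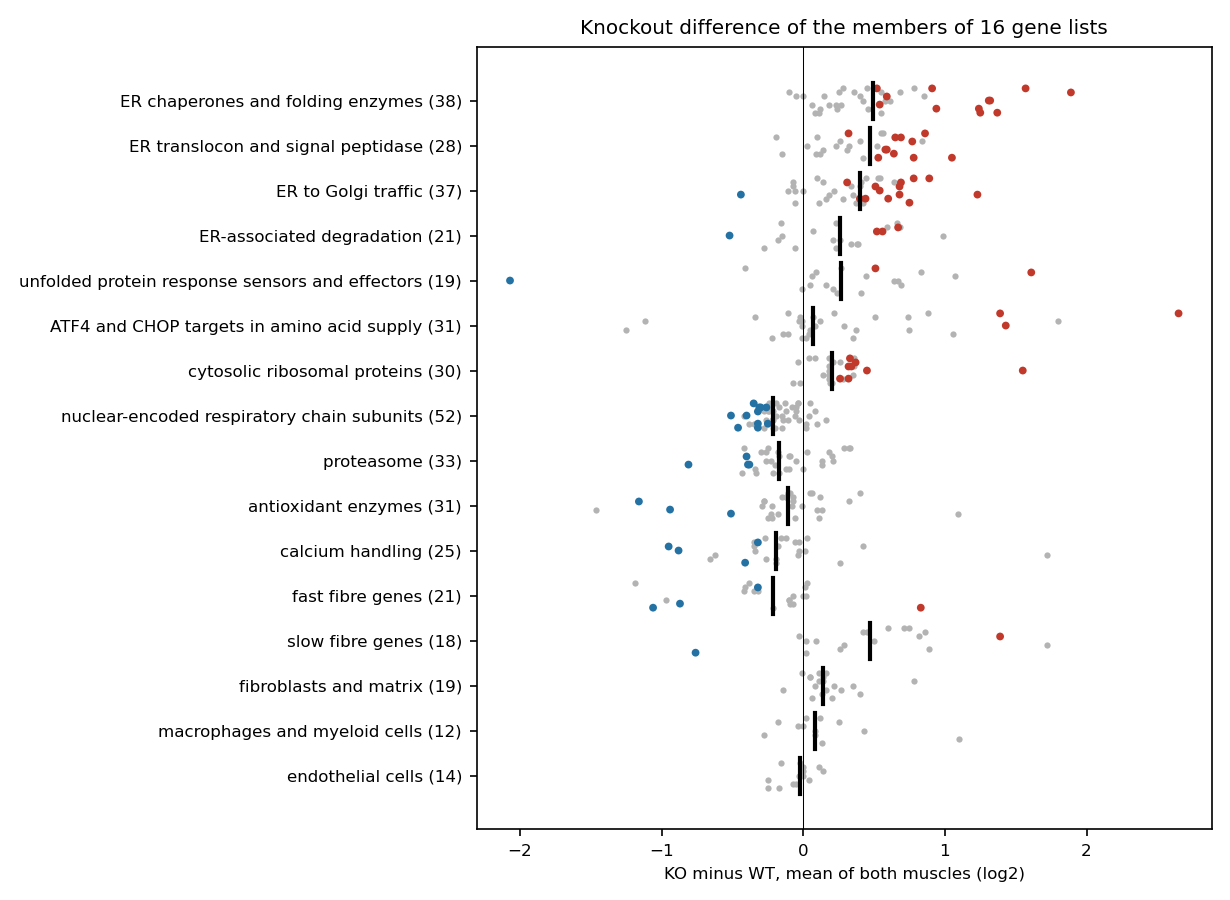
KO minus WT difference, averaged over both muscles (log2, x axis), of each measured member of 16 gene lists (rows, with the number measured), in red or blue where called and grey otherwise, with the list median as a black bar. The ER chaperone, translocon and traffic medians lie at 0.49, 0.47 and 0.40, the respiratory chain median at -0.21 and the endothelial median at -0.02.

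Nmrk2 was the gene that rose most in KO muscle. It encodes a muscle kinase of nicotinamide riboside, a step toward NAD. It read 13.65, 14.03 and 14.23 on KO soleus, 10.15, 9.11 and 11.20 on WT soleus, 14.52, 14.52 and 14.52 on KO TA, and 12.40, 12.14 and 13.26 on WT TA. KO arrays were higher throughout and the 3 KO TA arrays were alike. The mean difference was 2.87 (SE 0.32, adjusted p = 0.004), or 7.3-fold. In the list of 16 NAD synthesis and use genes, Sirt7, a nuclear deacylase, also rose (0.45, SE 0.10) and Sirt3, the main mitochondrial deacetylase, fell by 0.58 (SE 0.09), both without overlap. The median of that list was 0.11, with 12.5% called higher and 6.25% lower, against 2.41% and 2.47% of all genes. With the animal pairs as a block Nmrk2 and Sirt3 passed and Sirt7 did not. Sirt7 was called in 2 of the 12 fits without single arrays.

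The other genes of highest mean difference without overlap were of mixed kinds. 2410006H16Rik rose by 2.06 (SE 0.42) and 2610306M01Rik by 1.37 (SE 0.18). Tlr4, a receptor of innate immunity, rose by 1.50 (SE 0.29), although its other probe sets gave 0.65 and -0.07. Osbpl3, a lipid transfer protein, was called at 1.46 on a dim probe set, with a second one at 0.00. Myom3, of the sarcomere's M-band, rose by 1.39 (SE 0.17), from 4.50, 4.27 and 4.30 to 7.35, 6.58 and 6.22 in TA, and in soleus from 11.01, 10.86 and 10.83 to 11.26, 11.26 and 11.42. Both muscles were apart, with most of the change in TA.

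Ankrd1, a stress-responsive ankyrin protein of the sarcomere, and Myh3, the embryonic myosin heavy chain, also rose, by 2.57 (SE 0.48) and 1.96 (SE 0.40). Both had the larger difference in soleus, which the test between the muscles did not call (adjusted p = 0.788 and 0.824). Ankrd1 read 8.93, 9.29 and 10.65 on KO soleus against 6.72, 5.93 and 4.47 on WT soleus, and 9.03, 8.69 and 9.54 on KO TA against 8.10, 8.74 and 6.72 on WT TA. The soleus arrays were far apart and the TA arrays overlapped. Myh3 overlapped in TA too. In the list of 23 mechanical stress ankyrin and LIM proteins, 3 rose and none fell: Ankrd1, the LIM protein gene Lmcd1 (0.79) and the small heat shock protein gene Cryab (0.62). Those are 13% called higher, against 2.41% of all genes, and 2 rose with the animal pairs as a block.

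**Figure D5:**
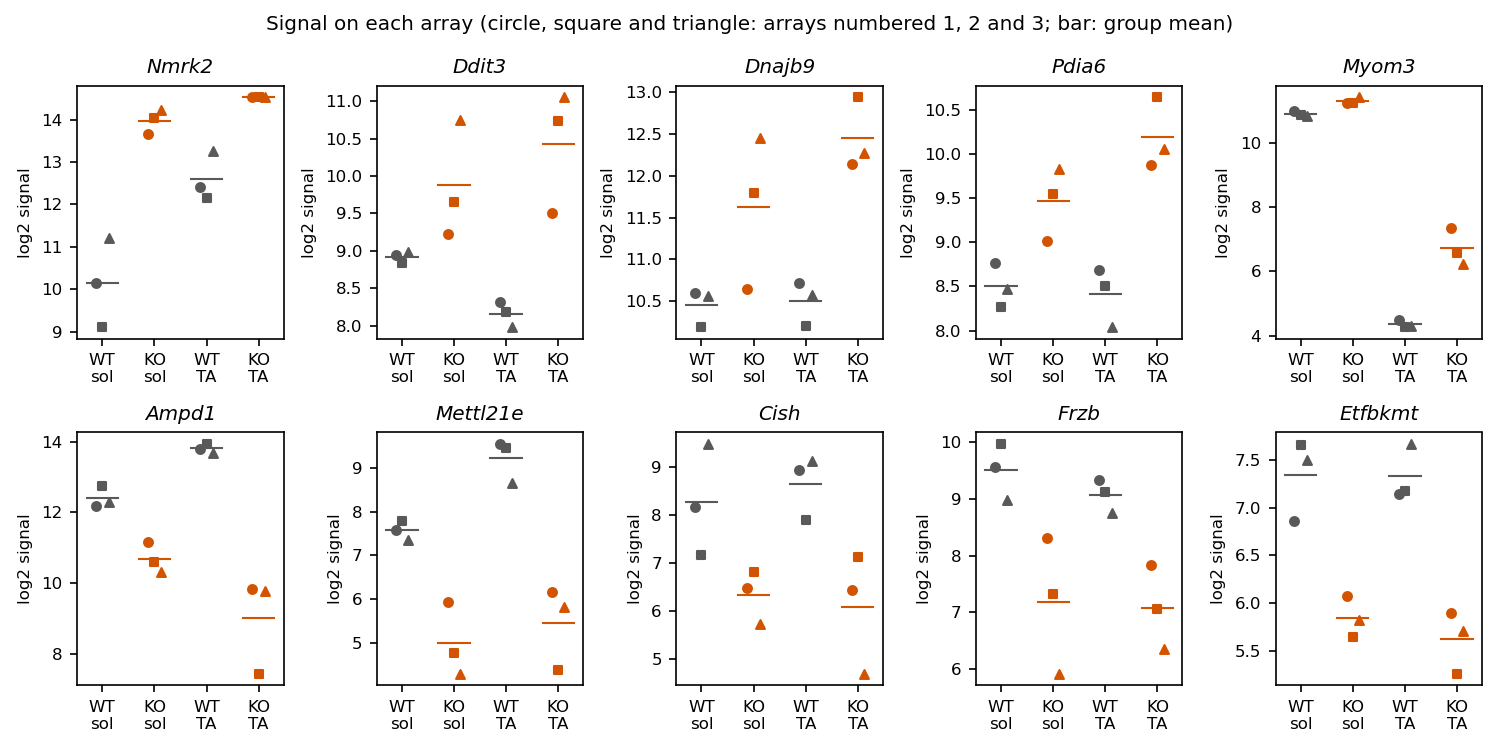
Log2 signal of 10 genes (y axis, a scale of its own for each gene) on every array of the 4 groups (x axis), with WT in grey, KO in orange and bars at the group means. Nmrk2, Ddit3, Dnajb9, Pdia6 and Myom3 lie higher in KO, and Ampd1, Mettl21e, Cish, Frzb and Etfbkmt lower, without overlap in either muscle.

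The largest fall belonged to 2310065F04Rik, known as linc-Myh, a non-coding RNA of the myosin heavy chain cluster. It read 3.15, 3.12 and 3.14 on KO soleus, 3.64, 4.01 and 3.57 on WT soleus, 3.53, 3.10 and 3.15 on KO TA, and 9.14, 9.42 and 9.70 on WT TA. Its RNA was bright in WT TA alone, so the mean of -3.38 (SE 0.13, adjusted p = 1.48e-06) rested on TA and is a lower bound of the fall.

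Ampd1, the AMP deaminase of skeletal muscle, read 11.16, 10.59 and 10.31 on KO soleus, 12.18, 12.74 and 12.30 on WT soleus, 9.82, 7.44 and 9.78 on KO TA, and 13.81, 13.94 and 13.69 on WT TA. The genotypes were far apart in both muscles. It fell by 3.26 (SE 0.38, adjusted p = 0.004), so that WT had 9.58 times the KO signal.

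Mettl21e, a lysine methyltransferase of muscle, read 5.93, 4.76 and 4.29 on KO soleus, 7.59, 7.78 and 7.36 on WT soleus, 6.15, 4.36 and 5.82 on KO TA, and 9.55, 9.45 and 8.66 on WT TA. It fell by 3.18 (SE 0.36, adjusted p = 0.004), with -2.58 in soleus and -3.77 in TA, and no array of one genotype reached the other.

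Others of the 12 lowest had differences over 1 in each muscle. Etfbkmt, a mitochondrial lysine methyltransferase, fell by 1.60 (SE 0.18; -1.49 in soleus, -1.71 in TA), Frzb, a secreted inhibitor of Wnt signalling, by 2.15 (SE 0.40; -2.32, -1.99), and the phospholipase C gene Plcd4 with them (-1.73, SE 0.36; -1.84, -1.61). Cish, a feedback inhibitor of cytokine signalling through STAT5, fell by 2.25 (SE 0.50), from 8.17, 7.17 and 9.48 to 6.47, 6.81 and 5.73 in soleus and from 8.93, 7.89 and 9.12 to 6.43, 7.12 and 4.69 in TA. Its arrays spread widely but did not overlap.

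Slc30a2, a zinc transporter, fell by 2.53 (SE 0.38) and Atcayos, named as a transcript opposite Atcay, by 1.56 (SE 0.22), while the second probe set of Atcayos fell by 2.86. BC023105 (-3.04) and D930003E18Rik (-1.96) had KO means below log2 4 in at least 1 muscle, which makes their falls lower bounds. Among called genes that overlapped in a muscle, Prima1, the anchor of acetylcholinesterase (-1.97), Mss51, a mitochondrial protein of fast muscle (-1.85), and Maob, monoamine oxidase B (-1.74), had the lowest values after Casp12.

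Respiratory chain subunits were lower by small amounts in both muscles. Of 52 nuclear-encoded subunits 11 fell, none rose and 45 had a lower mean, with a median of -0.21 (log2; -0.23 in soleus and -0.16 in TA), and 19 lay below WT without overlap in both muscles. The 11 are 21.2% called lower, against 2.47% of all genes. The 19 stand beside 2.60% of all genes below WT in that way. The count called lower was 6 with median centring, 3 with the animal pairs as a block and 6 to 11 without single arrays. Without the arrays numbered 3 it was 0.

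Ndufa2, of complex I, fell most. It read 13.22, 13.12 and 13.17 on KO soleus, 13.48, 13.56 and 13.70 on WT soleus, 13.26, 12.98 and 13.21 on KO TA, and 13.66, 13.59 and 14.06 on WT TA. The groups were narrow and apart, and the mean difference was -0.51 (SE 0.09, adjusted p = 0.0155). Ndufa6 (-0.46) and Ndufs8 (-0.35) of complex I, Cox7a1 (-0.40) of complex IV and Atp5o (-0.32) of ATP synthase fell as well. Of 23 tricarboxylic acid cycle genes limma called 0, with 4 at an unadjusted p under 0.05 (median -0.09) and with Pcx at -0.89 (adjusted p = 0.21) and Fh1 at -0.24 (adjusted p = 0.145). Of 31 fatty acid oxidation genes 1 fell, the nuclear receptor gene Ppard (-0.67), or 3.23% called lower against 2.47% of all genes. Ppard did not pass with the animal pairs as a block.

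Ribosomal protein genes shifted the other way. Of 30 cytosolic ones, 8 rose, none fell, 27 had a higher mean and 16 lay above WT without overlap in both muscles, at a median of 0.20. That is 26.7% called higher, against 2.41% of all genes, and the 16 stand beside 2.42% of all genes above WT in that way. Rpl4 read 14.98, 14.95 and 14.92 on KO soleus, 14.65, 14.59 and 14.25 on WT soleus, 14.84, 15.13 and 14.88 on KO TA, and 14.47, 14.60 and 14.45 on WT TA. It rose by 0.45 (SE 0.08), Rpl37 by 0.37, Rps26 by 0.34 and Rps7 by 0.33. Rpl14, at 1.55 (SE 0.30), stood far above the rest on a probe set much dimmer than those of the other members. With the animal pairs as a block 2 rose, with median centring 12, without single arrays 4 to 8, and without the arrays numbered 3 none.

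The host genes of small nucleolar RNAs, a group chosen after its values were seen, went with them. Of 10 measured genes named Snhg and a number, 5 rose and none fell (median 0.85), where 2.41% of all genes were called higher. Snhg14 went the other way, at -1.19 (adjusted p = 0.137). Snhg5 read 7.78, 8.09 and 8.11 on KO soleus, 7.25, 6.78 and 6.98 on WT soleus, 8.48, 8.91 and 8.85 on KO TA, and 7.71, 7.55 and 7.82 on WT TA. Its genotypes were apart by 0.99 in soleus and 1.05 in TA, and it rose by 1.02 (SE 0.12, adjusted p = 0.004). Snhg10 rose by 1.19, Snhg8 by 1.03, Snhg4 by 1.03 and Snhg6 by 0.82, and the related host gene Zfas1 by 0.44. Gas5 differed by 1.05 without passing (adjusted p = 0.0823).

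Among 33 proteasome genes 4 fell, none rose and the median was -0.17. Those are 12.1% called lower, against 2.47% of all genes. Psme4, a proteasome activator, fell by 0.81 (SE 0.10), from 11.98, 12.23 and 12.36 to 11.86, 11.62 and 11.58 in soleus and from 13.05, 12.94 and 13.34 to 11.94, 11.86 and 12.20 in TA. The groups were apart in both. Psmc3 fell by 0.40, Psmb5 by 0.39 and Psmc5 by 0.38. With median centring, or with the animal pairs as a block, 1 of the 33 fell.

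Glycogen, glucocorticoid and antioxidant genes changed singly. Of 20 glycogen genes, the phosphorylase kinase subunits Phkg1 (-1.27, SE 0.21) and Phka1 (-0.71, SE 0.08) fell and the branching enzyme Gbe1 rose (0.71, SE 0.11), all without overlap in both muscles. Those are 10% called lower and 5% higher, against 2.47% and 2.41% of all genes. Phkg1 read 8.74, 8.93 and 8.02 on KO soleus, 9.25, 9.84 and 9.99 on WT soleus, 11.10, 10.37 and 10.22 on KO TA, and 11.97, 11.88 and 12.05 on WT TA. Of 28 glucocorticoid-responsive genes 2 fell and none rose (median -0.15): Gadd45g, a growth arrest gene (-1.55, SE 0.19), and the kinase gene Sgk1 (-0.92, SE 0.16). That is 7.14% called lower, against 2.47% of all genes. Of 31 antioxidant enzymes 3 fell and none rose (median -0.11), the glutathione transferases Mgst1 (-1.16), Gstk1 (-0.94) and Gstm1 (-0.51). Those are 9.68% called lower, against 2.47% of all genes, and 1 of the 31 fell with the animal pairs as a block and 1 to 4 without single arrays.

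The rest of the ER glucose-6-phosphate system did not pass. Of its 5 measured genes limma called 0 (2 at an unadjusted p under 0.05), all 5 had a lower mean (median -0.46), and the transporter gene Slc37a4 differed by -0.83 (adjusted p = 0.0741). Among 16 NADPH-making enzymes outside the ER limma likewise called 0 (3 at an unadjusted p under 0.05), at a median of -0.04, with Aldh1l1 at -0.98 (adjusted p = 0.49) and Me2 at 0.48 (adjusted p = 0.174).

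Contractile and calcium genes changed in part. Of 21 fast fibre genes 3 fell and 1 rose (median -0.21): the Z-disc genes Myoz3 (-1.06, SE 0.18) and Myoz1 (-0.87, SE 0.15) and the calcium pump gene Atp2a1 (-0.32) fell, and Myh2, the fast oxidative myosin heavy chain, rose by 0.83 with 0.02 in soleus and 1.64 in TA. Those are 14.3% called lower and 4.76% higher, against 2.47% and 2.41% of all genes. Of 18 slow fibre genes Myom3 rose and the repressor gene Sox6 fell (-0.76, SE 0.18), while the median of 0.48 combined 0.02 in soleus with 1.03 in TA. That is 5.56% called in each direction, against 2.41% higher and 2.47% lower of all genes, and 16 of the 18 had a higher mean. The list averaged 8.15 to 8.54 on KO TA and 6.86 to 7.83 on WT TA arrays, but overlapped in soleus. With the animal pairs as a block Myom3 passed and Sox6 did not. Of 25 calcium handling genes 4 fell and none rose (median -0.19): Mrln, the calcium pump inhibitor myoregulin (-0.95), Cacna1s, the voltage sensor (-0.88), Jph1, which ties the membranes of the triad (-0.41), and Atp2a1. That is 16% called lower, against 2.47% of all genes, but 1 of the 25 fell with the animal pairs as a block and 0 to 5 without single arrays. With the same block 2 of the fast fibre genes fell and none rose. In bulk muscle, fewer fibres of a type and less RNA per fibre cannot be told apart.

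Atrophy, heat shock and regeneration lists held single changes. Capn3, the muscle calpain, fell (-0.60 in soleus and -1.40 in TA, SE of the mean 0.11, adjusted p = 0.004) and Map1lc3a, of autophagy, fell by 0.63, the 2 called of 28 atrophy genes. Of 25 cytosolic heat shock proteins Cryab and Hspa8 (0.46) rose and Hsph1 fell (-0.73), at a median of 0.23. Among 20 myogenic and regeneration genes Myh3 and Fst, the myostatin antagonist follistatin (0.72), rose. Called higher were 8% of the heat shock and 10% of the myogenic genes, against 2.41% of all genes. Called lower were 7.14% of the atrophy and 4% of the heat shock genes, against 2.47% of all genes. With the animal pairs as a block no call of the heat shock or the myogenic list passed and 1 of the atrophy genes did. Leaving out single arrays gave 0 to 3 heat shock and 1 to 2 myogenic genes higher. Prima1 was the 1 called of 18 neuromuscular junction genes. Insig1, a regulator of sterol synthesis (1.13), was the 1 of 17 cholesterol genes, Acaca, which makes malonyl-CoA (1.14), the 1 of 23 lipid droplet and fat synthesis genes, and Pgam2, the muscle phosphoglycerate mutase (-0.39), the 1 of 20 glycolytic genes. Ier3 (-0.89) was the 1 called of 23 immediate early genes. In these lists with 1 called gene, that gene is 4.35% to 5.88% of the list. Of all genes, 2.41% were called higher and 2.47% lower. Insig1, Acaca, Pgam2 and Ier3 did not pass with the animal pairs as a block. Among 17 clock genes limma called 0 (0 at an unadjusted p under 0.05).

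Few markers of other cell types were called on the mean. The skeletal fibre markers, which check the labelled tissue, averaged between 15.01 and 15.25 (log2) on all 12 arrays, and of 10 of them Mb, myoglobin, fell (-0.23). That is 10% called lower, against 2.47% of all genes, and Mb did not pass with the animal pairs as a block. Slow fibre genes averaged 12.70 to 13.02 on soleus arrays and 6.86 to 8.54 on TA arrays. In the endothelial, smooth muscle, fibroblast, tendon, adipocyte, macrophage, erythroid, Schwann cell and satellite cell lists limma called 0 of 84 genes, with 5 at an unadjusted p under 0.05. Within TA, however, the tendon marker Thbs4 differed by -1.58 (limma, adjusted p = 0.0256), with -0.02 in soleus. The smooth muscle marker Lmod1 differed by -0.88 in TA (adjusted p = 0.0226), with all its group means below log2 4. Their means over both muscles were -0.80 (adjusted p = 0.0661) and -0.45 (adjusted p = 0.0571). Fibroblast and matrix genes had a higher mean in KO for 17 of 19 (median 0.14), with list means of 11.23 to 11.63 on KO soleus arrays, 10.99 to 11.55 on WT soleus, 10.50 to 11.33 on KO TA and 10.70 to 10.96 on WT TA. These ranges overlapped in both muscles, and the part of such cells in the ER lists was not tested. Macrophage markers were higher for 9 of 12 (median 0.08), with Cd68 at 1.10 (adjusted p = 0.498), and adipocyte markers for 5 of 5 (median 0.19). Of 5 lymphocyte markers Ighm was called lower on the mean (-1.57) with opposite signs in soleus (0.37) and TA (-3.51). That gene is 20% of the list, against 2.47% of all genes called lower.

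A test of the difference between the muscles separated a few genes from a shared change. It called 5 genes (0.0384% of those tested; 743 at an unadjusted p under 0.05), and all 5 were also called on the mean: 2310065F04Rik, Mss51 and Prima1, which were lower in KO TA than in WT TA, and Arv1 and Bhlha15, which were higher there. For the other called genes a difference between the muscles was not detected, which does not show equal effects, since its standard error had a median of 0.25 against 0.13 for the mean.

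The genes around H6pd were looked at separately. Of 172 tested genes up to 100 places on either side of H6pd, 8 were called on the mean (4.65%), against 29 of 610 (4.75%) on the rest of the chromosome and 4.88% of all genes.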

How the data were processed

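The authors deposited log2 signals of 45101 probe sets for each of 12 one-colour Affymetrix arrays. Per the labels, Trizol-extracted total RNA was turned into biotin-labelled cRNA. The submitters' processing notes name MAS5 without version or role, and how probes were summarised into log2 values is not given in the sources used. Depth does not apply to arrays, and their number limits the precision.

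Quantile normalization was applied, since unlogged 2% trimmed means spanned a factor of 1.11 between arrays. A probe set was kept if it exceeded the array's 40th percentile (log2 2.76) on 3 or more arrays. In the probe annotation 34945 probe sets had 1 gene symbol; the 932 with several and the 9160 with none were tested apart. The probe set of highest mean stood for each gene, giving 13009 genes, of which 12984 matched a RefSeq gene table. In R 4.3.3 with limma 3.58.1, lmFit on 4 group means and eBayes with a variance trend tested the mean of the KO minus WT differences of both muscles, each muscle and their difference, 2-sided, adjusted over all genes by Benjamini-Hochberg at 0.05. The code was tested on simulated data. Values are log2 differences with the model's standard error (SE, median 0.13). A level under log2 4 counts as dim.

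The comparison, the 43 gene lists (11 of cell type markers) and the naming rule were chosen with earlier results of these data known. The rule names H6pd, the 12 highest and 12 lowest called genes without overlap in both muscles, the 4 highest and 4 lowest other called genes, and up to 5 called members of each list described. Sar1b, the Snhg genes, the genes with a promoter element and those called for the difference between muscles were added after their values were seen. Promoter sequences are RefSeq's. In all 6 pairs of a soleus and a TA array of one genotype and number, deviations from the group means correlated, at 0.14 to 0.59. Of unlike numbers, WT soleus 1 with WT TA 2 (0.35) and WT soleus 2 with WT TA 1 (0.22) did so too. The others of one genotype lay between -0.51 and 0.10. Soleus and TA arrays of equal number but unlike genotype, which cannot share a mouse, correlated at 0.04 to 0.47. The labels do not pair soleus and TA arrays of one genotype, and whether those of equal number share a mouse was not tested. Alternatives covered scaling, filter, pseudocount, probe set choice, moderation, array weights, the replicate number or the animal pair as a block, and left-out arrays; the values within each muscle were added after seeing the data.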

Additional observations from a re-analysis of the deposited data

Results flagged for a closer look

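The test of the difference between the muscles, TA effect minus soleus effect, called 5 genes. 2310065F04Rik differed by -5.55 (adjusted p = 1.04e-05), Mss51 by -3.61 and Prima1 by -3.59 (adjusted p = 0.0289 for both), each with a fall in TA and a signal on soleus arrays that was dim or hardly differed. Mss51 read 5.12, 5.17 and 5.17 on KO soleus and 5.13, 5.23 and 5.23 on WT soleus, against 7.86, 6.77 and 6.98 on KO TA and 10.21, 11.21 and 11.17 on WT TA. Bhlha15, a transcription factor of secretory cells, differed by 1.5, from 2.54, 2.50 and 2.51 on WT TA to 4.34, 4.04 and 3.69 on KO TA. It stayed between 2.49 and 2.52 on all soleus arrays, a dim level. Arv1, a sterol transporter of the ER, differed by 0.61 with all group means below log2 4.

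Probe sets without a single gene name lay outside the gene tests. When all kept probe sets were tested together, 88 of 4849 such probe sets were called on the mean of both muscles (1.81%), 59 higher and 29 lower in KO, against 793 of all 27497 kept probe sets (2.88%).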

How the results depend on the processing

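The count of 635 genes called on the mean of both muscles rose to 1120 with array weights and to 1311 with the replicate block, which included all 635. It fell to 72 without the arrays numbered 3 (52 of the 635 among them), to 193 with the animal block, and to 1 when the soleus and TA arrays of a number were averaged, 2310065F04Rik. Leaving out single arrays gave 263 to 629. Genes called in both muscles numbered 1 with median centring, 1 with a mean signal above 5, 2 with the replicate block, 94 with array weights and 0 to 11 without single arrays, against 0. Genes whose effect differed between muscles numbered 3 with median centring, 3 without a filter, 1 with a mean signal above 5, 8 with every probe set, 1 without the variance trend, 10 with array weights, 8 without the arrays numbered 3, 15 with the animal block, 4 with the replicate block and 1 to 20 without single arrays, against 5. The cause was not tested. Deviations of equally numbered KO and WT arrays correlated at 0.43, 0.09 and 0.61 in soleus and 0.35, 0.16 and 0.56 in TA. All but soleus number 2 exceed 0.1, and the labels do not say that a number pairs KO with WT mice, so the replicate block is given as an alternative only. H6pd kept its direction and did not pass under the alternatives run for it. No called gene that the naming rule gives changed direction under the alternatives run over both muscles; within soleus alone Ighm turned to 0.37. In 43 of the 635 a group mean lay below log2 4: against a brighter group the difference is then a lower bound, and between dim groups its size cannot be read.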
